A study of Drosophila melanogaster with 16 samples.

Results

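The transcripts of undisturbed male fly heads were described from the 2 arrays titled Unexposed A and Unexposed B, which are 2 of the 16 arrays in the series and were chosen by that label. All 16 arrays hold head RNA from adult males of the Berlin background of Drosophila melanogaster, aged 2 to 4 days. A and B come from 2 independent groups of flies that received no treatment, whereas 7 arrays come from flies exposed to humidified air and 7 from flies exposed to ethanol vapor at 60% of saturation, each for 30 min. Recovery was stopped by freezing at once (0 min), after 30, 60 or 90 min, or after 120, 180 and 210 min, with 1 array for each exposure and time, and each of those arrays holds 3 groups of 200 flies combined before extraction. Genes were ranked by the mean of A and B, which gives a baseline of what a head expresses before any handling. The values are deposited log2 levels from Affymetrix oligonucleotide arrays, computed with GCRMA, which removes background with the help of probe sequence and puts the arrays on a common scale.

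A fly head holds several organs. Its largest sensory organ is the compound eye, in which photoreceptors turn light into an electrical signal through rhodopsin, a G protein and the TRP channels, while pigment cells and the cuticular lens isolate and focus each facet. The antennae carry the sense of smell with odorant receptors and secreted odorant-binding proteins. Inside the capsule lie the brain, with neurons, glia and peptide-secreting cells, the muscles that move the mouthparts and antennae, and a fat body that secretes lipid carriers and other blood proteins. In RNA from whole heads, fewer cells of a type and less RNA per cell cannot be told apart.

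Of 11982 genes that a probe set names alone, 6959 (58.1%) had a mean of log2 4 or more, 1323 (11.0%) reached 10, 175 reached 13 and 43 reached 14. The levels formed a narrow group near background and a broad one above it. In the first, 3484 genes lay between log2 2 and 2.5. Fewest genes lay between, with 475 from 3 to 4, and the second group held 2264 genes from 6 to 8 and 2238 from 8 to 10. Log2 4 is therefore used here as the line between genes near background and genes above it. CG8543 stood at the middle of the ranking with 5.67 in A and 5.91 in B.

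The rank is one of hybridization signal, not of transcript number. The 767 genes with more than 1 probe set and a highest probe set at 4 or above had a median gap of 4.00 log2 units between their highest and lowest probe sets. The gap was 2 or more in 79.1% of them, and the lowest probe set lay below 4 in 65.1%. Small differences between genes are therefore not read as differences in abundance, and a gene near background may have been missed by its probes. Of the 100 highest probe sets, 41 have no single gene symbol in the annotation and are left out of the gene ranking, as are 71 of the highest 200.

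The highest gene was sesB, the mitochondrial ADP/ATP translocase, with 15.23 in A and 15.05 in B. Neuropeptide-like precursor 2 (Nplp2) followed with 15.02 and 14.97, and Arr2, an arrestin that shuts off activated rhodopsin, with 15.01 and 14.94. RpL41 (14.84 and 14.88) and RpL15 (14.86 and 14.80), both of the large ribosomal subunit, came next. The top of the ranking thus held genes of energy supply, the eye and translation within a span of less than 1 log2 unit.

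The other genes of the highest 40 fall into a few roles. Energy supply was represented by ATPsynbeta (14.52 and 14.46) and blw (14.15 and 14.11), the beta and alpha subunits of ATP synthase, by ND-MLRQ of complex I (14.41 and 14.42) and by Mpcp2, the mitochondrial phosphate carrier (14.20 and 14.29). The eye was represented by Arr1, the other photoreceptor arrestin (14.65 and 14.67), by Pdh, a retinoid dehydrogenase of the retina (14.49 and 14.55), and by Cpr72Ec, a protein of the corneal lens (14.12 and 14.08). Muscle had the actin Act79B (14.52 and 14.41), the calcium pump SERCA (14.39 and 14.40), the arginine kinase Argk1 (14.29 and 14.12) and the sarcoplasmic calcium-binding protein Scp1 (14.33 and 14.28). All of these genes lay above 14 in both arrays.

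Secreted and fat body products also stood among the highest 40. They include apolpp, the precursor of the lipid carrier of the blood (14.35 and 14.37), and the odorant-binding protein gene Obp19d (14.32 and 14.34). EbpIII, named for a protein of the ejaculatory bulb, was at 14.73 and 14.66. The listed genes of the male reproductive tract were near background in the same arrays. The chaperone Hsc70-4 was at 14.34 and 14.25 and the translation factor eIF4A at 14.14 and 14.11. CG17108, CG4716, CG5953, CG2233 and CG8343, which carry no other name in the annotation, lay between 14.05 and 14.60 in A and B.

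**Figure D1:**
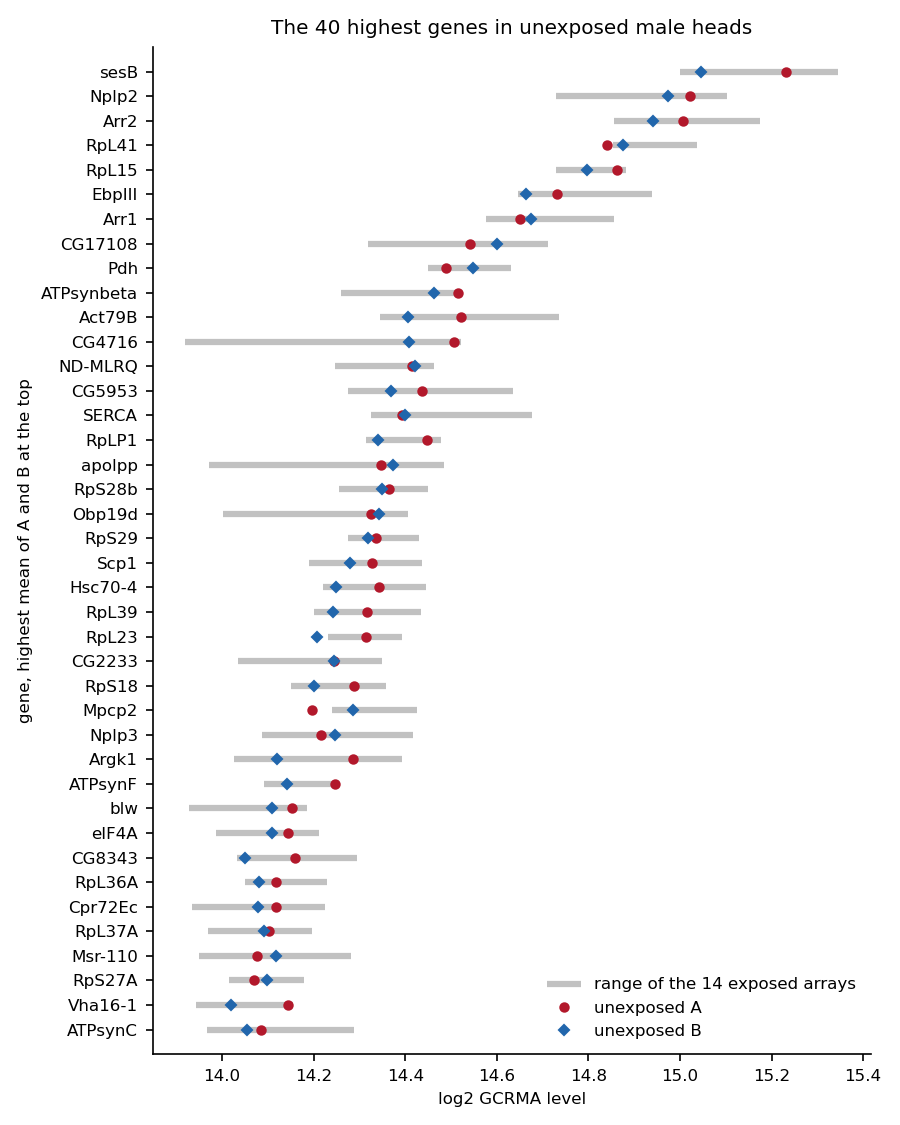
Log2 GCRMA level (horizontal axis) of the 40 highest genes in unexposed A (circles) and unexposed B (diamonds), with grey bars for the range of the 14 exposed arrays. Both unexposed values lie within the exposed range for 36 of the 40 genes, and A and B differ by at most 0.19.

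The 14 exposed arrays give a yardstick for this ranking. For 36 of the highest 40 genes both A and B lay within the range of the exposed arrays, a range whose median width was 0.25 log2 units. Over the highest 200 genes this held for 171. Of these 200, 3 (nrv3, Obp57c and Cyp4d21) had both unexposed values above all 14 exposed values. Another 1, ATPsynE, had both below (13.47 and 13.48 against 13.51 to 13.69). The share of all genes separated in this way was not counted, so the separation is not read as a difference. These 4 were picked out after their values were seen.

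Of the highest 100 genes, 73 belong to at least 1 of the lists of tissue markers and gene families used here. They include 25 cytosolic ribosomal proteins, 12 subunits of oxidative phosphorylation, 7 muscle genes, 5 photoreceptor genes, 4 glycolytic enzymes, 4 odorant-binding proteins, 3 fat body genes, 2 neuropeptide genes, 2 lens genes, 1 neuronal gene (cpx) and 1 glial gene (Gs2). No member of the antennal list was among them. Of the 27 genes in no list, 12 are known by a CG number alone. Some genes count in more than 1 list, as Obp44a does for the fat body and the odorant-binding proteins.

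The tissue lists differed widely in level. Each is given by the percentile of a list's median gene among all 11982 genes, so that a list drawn evenly from the genome would lie near 50.0. Muscle lay at 97.9, photoreceptors at 91.3, glia at 90.6, the head fat body at 89.5, neurons at 78.9, neuropeptides at 78.7, hemocytes at 76.9, lens and pigment cells at 72.4, the antenna at 54.1 and the epidermis at 41.1. The lists for organs outside the head lay lowest, with the male reproductive tract at 26.9 and the gut at 12.3. Markers are chosen for being strong in their tissue, so these percentiles describe the lists and are not measures of tissue size.

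**Figure D2:**
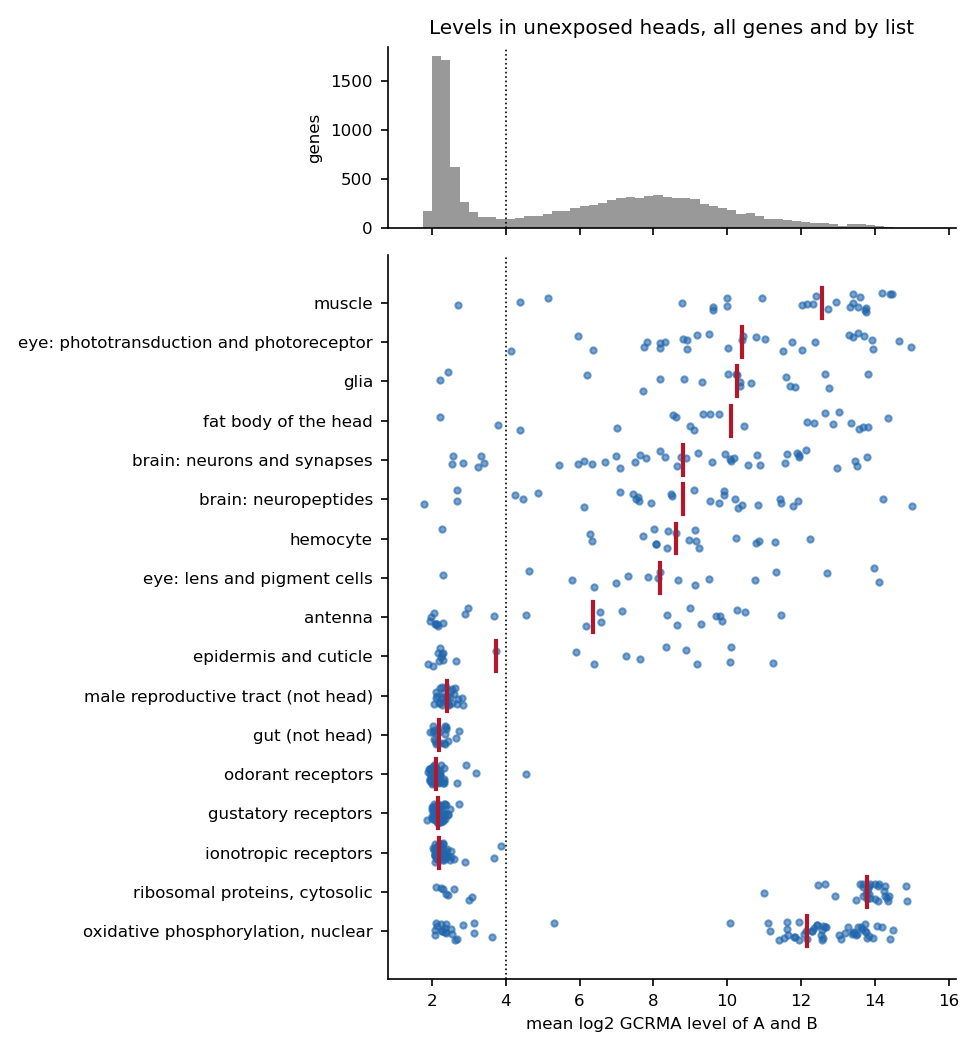
Top, number of genes by mean log2 GCRMA level of A and B. Bottom, the level of each member of 17 lists, with the median in red and the line at log2 4 dotted. Reproductive tract, gut and receptor genes sit in the narrow low group, whereas muscle, photoreceptor, ribosomal and respiratory genes sit mostly above 8.

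In the eye, all 30 measured photoreceptor genes were at 4 or above and 17 were at 10 or above. The TRP channels trp (13.996 in A, 13.87 in B) and trpl (13.57 and 13.52) and the G protein subunits Gbeta76C (13.95 and 13.86) and Galphaq (13.44 and 13.35) were all above 13. So were rtp, which encodes retinophilin of the rhabdomere (13.78 and 13.65), and chp, the photoreceptor adhesion protein chaoptin (13.34 and 13.28). A was slightly higher than B for all 6, as it was for 84.5% of the 6984 genes that reached 4 in A or B. The lowest members were ninaD, a carotenoid scavenger receptor (4.04 and 4.23), Pld, phospholipase D (6.10 and 5.84), and ort, a histamine receptor of the neurons that receive photoreceptor input (6.51 and 6.20).

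Rh7 was the only rhodopsin gene analysed here, with 6.91 in A and 6.61 in B. Its mean, 6.76, lay at percentile 57.5 of all genes. The other rhodopsins of the list were not analysed here. Among lens and pigment genes, retinin of the corneal lens was at 13.94 and 14.01, next to Cpr72Ec. Pu, the first enzyme of pteridine synthesis, was at 12.76 and 12.65, and the pigment genes se (11.35 and 11.29) and pr (10.80 and 10.73) of the same pathway followed. The lens list had 1 of 17 members near background, cn, an enzyme of the brown eye pigments (2.31 and 2.29).

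Muscle had the highest median of the tissue lists. Of 26 measured members, 25 were at 4 or above, 18 at 10 or above and 11 at 13 or above. Beside Act79B, SERCA and Argk1, the Z-disc gene Zasp66 (13.84 and 13.70), the calcium sensor TpnC41C (13.83 and 13.68), the myofilament gene Mf (13.80 and 13.69), the paramyosin gene Prm (13.66 and 13.54) and the LIM protein gene Mlp60A (13.63 and 13.47) filled the list's upper end. These 5, from Zasp66 to Mlp60A, were higher in A than in B by 0.10 to 0.16, beside a median of 0.13 over the 6984 genes that reached 4 in A or B. At the lower end lay fln, which encodes flightin of the thoracic flight muscle (2.69 and 2.74), and TpnC4, a troponin C of that muscle (4.42 and 4.36), whereas Act88F, the flight muscle actin, was at 9.68 and 9.57. Act88F was added to this comparison after its values were seen.

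In the fat body list, 20 of 22 members were at 4 or above. After apolpp came Obp44a (13.82 and 13.81), the fatty acid desaturase Desat1 (13.62 and 13.73), the fatty acid synthase FASN1 (13.59 and 13.55), the gluconeogenic enzyme Pepck1 (13.36 and 13.32), Cyp4d21 (13.03 and 13.02), the iron carrier Tsf1 (12.89 and 12.83) and sxe2 (12.65 and 12.65). The unexposed pair differed by at most 0.11 in each of these. Fbp1, which belongs to the larval fat body, was at 2.23 and 2.21, and tobi at 3.80 and 3.78. Both were near background.

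Odorant-binding protein genes were split in level. Of 47, 22 were at 4 or above and 25 below. Obp19d, Obp56d (14.07 and 14.01), Obp99c (13.84 and 13.85), Obp44a and Obp57c (13.43 and 13.36) all exceeded 13. Obp50a, Obp50e, Obp58b, Obp47b and Obp83ef had means between 2.07 and 2.21.

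The antennal list held 26 measured genes, of which 15 were at 4 or above. Its highest members were Obp83b (11.43 in A, 11.49 in B), Os-C (10.43 and 10.51), a10 (10.30 and 10.25), Antdh, a dehydrogenase of antennal support cells (9.71 and 10.001), Obp69a (9.80 and 9.79), Obp28a (9.58 and 9.79), Jhedup (9.30 and 9.27) and Obp19a (8.97 and 9.02). None of these highest 8 encodes a receptor.

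Of 57 odorant receptor genes, only Orco, the co-receptor that most olfactory neurons share, was at 4 or above, with 4.67 and 4.41. Or63a followed at 3.23 and 3.19, and the lowest, Or9a, was at 1.90 and 1.88. None of 56 gustatory receptor genes reached 4, the highest being Gr39a at 2.76 and 2.73. None of 53 ionotropic receptor genes did either, the highest being Ir76a (3.91 and 3.84) and the co-receptor Ir76b (3.61 and 3.77). On these arrays such genes could not be told apart from background, which does not show that they are silent.

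Neuronal genes were mostly well above background, with 34 of 40 at 4 or above and 16 at 10 or above. The highest were cpx, the complexin of the synaptic fusion machinery (13.79 and 13.76), nrv3, a sodium pump subunit of neurons (13.50 and 13.52), Snap25 of the same fusion machinery (13.56 and 13.37), Gad1, which makes GABA (13.07 and 12.89), Appl, the fly amyloid precursor protein (12.26 and 12.003), unc-13 (11.999 and 11.89), Syn, synapsin (11.96 and 11.91), and Rab3 (12.01 and 11.79). The lowest were brp, the active zone scaffold (3.36 and 3.32), Tdc2, which makes tyramine (3.18 and 3.32), the dopamine receptor Dop1R1 (3.03 and 2.67), nAChRalpha1 (2.59 and 2.58) and the potassium channel eag (2.57 and 2.55).

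Those 5 genes are textbook brain genes and yet lay in the low group, so the level of a single probe set does not decide whether a gene is used in the brain. All 4 brp probe sets had means below 4, from 2.15 to 3.34, and both of nAChRalpha1 had means of 2.37 and 2.58.

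Among neuropeptide genes and their processing enzymes, 27 of 30 were at 4 or above. Nplp2 and Nplp3 (14.22 and 14.25) were the highest of them. Phm, the monooxygenase that begins peptide amidation, was at 12.03 and 11.83, Pal2, of the last amidation step, at 11.58 and 11.32, AstC, allatostatin C, at 11.89 and 11.67, and Ms, myosuppressin, at 11.56 and 11.32. CCHa2 (10.86 and 10.81) and Nplp1 (10.48 and 10.30) completed the highest 8. At the other end Akh, the adipokinetic hormone of the corpora cardiaca, was among the 5 lowest of all genes with 1.79 and 1.77, and CCAP and amn were at 2.67 and 2.69 on average.

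The glial list had a median of 10.26, beside 8.81 for the neuronal list and 5.79 for all genes. Gs2, the glutamine synthetase of glia, was at 13.86 and 13.75, the amino acid transporter Eaat2 at 12.83 and 12.71, the sugar transporter Tret1-1 at 12.66 and 12.62, Indy at 11.91 and 11.76, the sodium pump subunit nrv2 at 11.75 and 11.68, and the astrocyte gene alrm at 11.64 and 11.52. CG6126 and the engulfment receptor drpr followed at 10.66 and 10.35 on average. Only gcm, the embryonic switch to glial fate (2.45 and 2.43), and GlyT (2.24 and 2.23) were below 4 among 19 members.

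Blood cell markers were present at middle levels, with 18 of 19 at 4 or above. The highest were SPARC (12.25 and 12.23), Ppn (11.32 and 11.25), Glt (10.90 and 10.82) and crq, a scavenger receptor of macrophages (10.84 and 10.74). The collagen gene vkg was at 10.29 and 10.18 and Hml, hemolectin, at 9.16 and 9.12. Other tissues also use SPARC, Ppn and vkg for their matrix. He, hemese, was near background at 2.29 and 2.28. In the list for epidermis and cuticle 10 of 21 were at 4 or above, led by Cpr49Ae (11.34 and 11.13). Of all 100 cuticular protein genes 18 were, so that the lens protein Cpr72Ec and Cpr65Au, both at 13.66 or above in A and B, were exceptions in their family.

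Detoxifying enzymes varied by gene. Of 81 cytochrome P450 genes 49 were at 4 or above. Cyp313a1 led with 14.06 and 14.04, Cyp6d5 was at 12.38 and 12.27, and Cyp6a2 was at 2.00 and 1.98. Of 34 glutathione transferases 27 were at 4 or above, led by GstD1 (13.39 and 13.39) and GstE12 (13.16 and 13.16). UDP-glycosyltransferases were lower, with 15 of 35 at 4 or above, led by Ugt302C1 (9.81 and 9.54).

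In the families that serve most cells, many of the low members are named as copies of other genes. Of 38 measured cytosolic ribosomal protein genes, 30 were at 4 or above with a median of 13.85, and the other 8 lay at 3.09 or below. The 5 lowest were RpS19b, RpL10Aa, RpL22-like, RpS28a and RpS10a, at 2.11 to 2.43, each of which is the other copy of a ribosomal protein gene. The partners RpL10Ab and RpS28b were high, at 13.80 and 14.36 on average. Those of RpS19b, RpL22-like and RpS10a are not among the measured genes. Of 69 nuclear genes of oxidative phosphorylation, 50 were at 4 or above, with a median of 12.60. Of the 19 below, 17 have names ending in L or in L and a digit, most of them gene copies, against 2 of the 50 above. The proteasome showed the same split, as all 14 genes below 4 and none of the 26 above have names ending in T or R with or without a digit, which mark copies, most of them known from the testis.

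The remaining proteasome genes had a median of 9.68 and a maximum of 10.84, for Prosbeta2 (10.89 and 10.79). The 69 mitochondrial ribosomal protein genes were all above 4, from 6.70 (mRpL21) to 12.29 (mRpS5), with a median of 8.38. All 10 glycolytic genes were above 4, with a median of 13.005. Ald1 (13.82 and 13.92) and Gapdh1 (13.78 and 13.81) led, and Pglym78 was lowest at 7.37 and 7.36. In the mixed list of iron storage, translation and cytoskeleton, alphaTub84D was the 1 of 19 below 4 (2.83 and 2.69). Tubulin genes are near-identical copies, so this value is uncertain.

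The lists for organs outside the head, the male reproductive tract and the gut, lay near background in A and B. All 31 measured genes of the male reproductive tract lay below 4, the highest being Acp98AB, an accessory gland gene (2.88 and 2.79). All 21 gut genes did too, the highest being the protease gene Jon66Ci (2.75 and 2.74). The mean of the reproductive list was 2.42 in A and 2.39 in B and that of the gut list 2.25 in both. In contrast 4 exposed arrays carried such transcripts, with a reproductive list mean of 6.28, 5.12 and 5.51 in air at 0, 60 and 120 min and 4.13 in ethanol at 120 min. The other 10 exposed arrays lay at 2.38 to 2.45.

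Sex markers gave a mixed picture. The yolk protein genes of females Yp1 (2.33 and 2.30) and Yp2 (2.44 and 2.52) were near background, while Yp3 was at 7.96 and 7.68. The dosage compensation gene of males msl-2 was at 6.92 and 6.86. The sex determination genes dsx (8.70 and 8.35), fru (9.25 and 8.53), tra (7.95 and 7.80) and Sxl (9.42 and 9.18) were all above background, and the probe sets used do not separate the male from the female forms. All 4 measured genes of the Y chromosome lay near background, the highest being ORY (2.90 and 2.86).

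Clock genes vary over the day, and the hour of collection is not given in the sources used here. The transcript of tim was at 11.83 and 11.65, vri at 11.56 and 11.36, cwo at 11.53 and 11.23, Pdp1 at 11.33 and 11.12 and Slob at 10.81 and 10.59. The activator Clk was at 5.67 and 5.58. A exceeded B in each of these by 0.09 to 0.30, against a median of 0.13 over all genes above background. Of genes that neural activity or stress induces, Arc1 was at 12.53 and 12.45, the immediate early gene kay at 12.02 and 11.82 and DnaJ-1 at 11.93 and 11.76, and the 5 lowest, among them Hsp68 (5.62 and 5.73) and Hsp27 (6.41 and 6.21), were also above 4.

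Most genes of the small chromosome 4 lay high in the ranking. Of its 65 measured genes, 61 (93.8%) were at 4 or above and 28 (43.1%) at 10 or above, with a median of 9.68. On the arms of chromosomes 2 and 3 together, 57.6% of 9951 genes were at 4 or above and 11.2% at 10 or above, with a median of 5.78. The X chromosome, of which males have a single copy, had 61.3% of 1873 genes at 4 or above. Among genes at 4 or above the X median was 7.85 and the median of the arms of 2 and 3 was 8.11. ATPsynbeta and apolpp are the 2 genes of chromosome 4 in the highest 100, and X has 8 there.

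**Figure D3:**
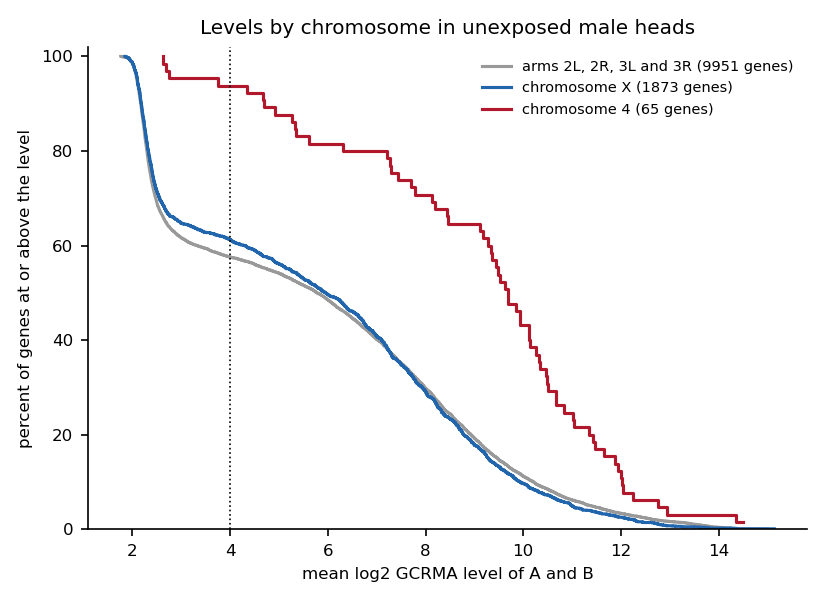
Percent of genes (vertical axis) at or above each mean log2 GCRMA level of A and B (horizontal axis) for chromosome 4, X and the arms 2L to 3R, with log2 4 dotted. The curve of chromosome 4 stays above the others over most of the scale, with 93.8% of its genes at or above 4 against 61.3% and 57.6%.

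Gene length varied along the ranking. The median span of a gene in the annotation was 1501 bases for genes between log2 2 and 2.5, rose to 4063 for genes between 10 and 12, and was 1487 for the 43 genes at 14 or above. Of those 43, 11 encode cytosolic ribosomal proteins. The genes at both ends of the ranking were therefore short, and those between were longer.

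A and B were close. Over all 11982 genes the correlation across genes was 0.999 (Pearson's r and Spearman's rho alike), a figure to which the wide range of levels contributes and in which genes are not independent replicates. Over the 6984 genes that reached 4 in either array the SD of A minus B was 0.16. Of the highest 10 genes in A, 9 were among the highest 10 in B, and of the highest 100, 95 were shared. Of the highest 200, 195 were. The genes not shared between both lists of 100 lay at ranks 86 to 107 by their mean.

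A was slightly higher throughout. The median of A minus B was 0.13 and 84.5% of the 6984 genes were higher in A. With the values rescaled so that every array has the same distribution, the median became -0.00059 and 49.5% were higher in A. A difference of less than about 0.13 in favour of A is therefore not read as a difference between the groups of flies.

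Of the 6984 genes, 144 (2.06%) differed by 0.5 or more, 125 of them higher in A, and 4 (0.0573%) by 1 or more. After rescaling, 94 differed by 0.5 or more, 56 of them higher in A and 38 higher in B. The 4 past 1 as deposited were CG16826 (7.67 in A, 6.36 in B), TTLL6A (3.96 and 5.26), meng (5.68 and 4.67) and Drs, which encodes the antifungal peptide drosomycin (11.28 and 10.28). After the same rescaling, CG16826 (1.18) and TTLL6A (-1.41) remained past 1, and meng (0.93) and Drs (0.85) did not. With 2 arrays this spread has no test, and it is the measure of replicate error for every level given here.

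**Figure D4:**
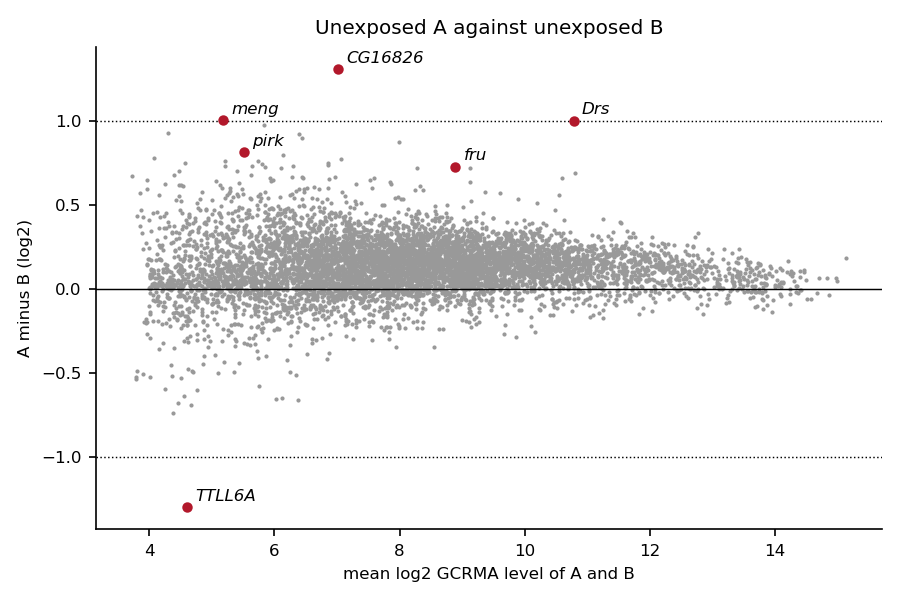
A minus B (log2, vertical axis) against the mean of A and B (log2 GCRMA level, horizontal axis) for the 6984 genes that reached 4 in either array; dotted lines mark 1 log2 unit. The cloud is centred on 0.13, and CG16826, TTLL6A, meng and Drs reach or pass the lines.

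Of the 12 measured genes of the antimicrobial peptide list, 8 reached 4 in A or B, and Drs and DptB, a diptericin (8.54 in A, 7.95 in B), were the 2 that differed by 0.5 or more, beside the 2.06% of all genes. Mtk, metchnikowin, was at 10.73 and 10.26. After rescaling the difference was 0.46 for DptB and 0.31 for Mtk. In contrast, the short-peptide genes BomS2 (13.47 and 13.42) and BomS5 (11.86 and 11.84) and the drosomycin-like Drsl5 (12.75 and 12.77) were nearly equal. pirk, an inhibitor of the Imd immune pathway, was at 5.92 and 5.10, and A exceeded B by 0.71 after rescaling. Both values lay below all 14 exposed arrays (6.43 to 7.65), with a limma adjusted p of 0.21 against air and 0.019 against ethanol. pirk was named for its gap between A and B. The comparison with the exposed arrays was added after its values were seen, and its results under the alternatives are not given here. The male courtship gene fru differed by 0.73, and by 0.58 after rescaling. Other genes with a large excess in A as deposited were br, an ecdysone response gene (6.32 and 5.34), Nckx30C (6.86 and 5.94) and ovo (6.89 and 5.997), all of them at low to middle levels. On the other side, 19 genes were higher in B by 0.5 or more as deposited, TTLL6A among them, and the rest are not listed here.

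Agreement was closer at higher levels among genes above background. The SD of A minus B was 0.23 for genes between 4 and 6, 0.12 between 8 and 10 and 0.06 at 14 or above. Values near background agreed closely as well, with an SD of 0.03 between 2 and 2.5, where 95.1% of genes were higher in A by a very small amount.

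No other pair of arrays was as close as A and B. Among the other 119 pairs of arrays, between 11 and 336 genes were 1 log2 unit or more apart and the SD of the difference was 0.20 to 0.67. For the 65 of these pairs without the 4 arrays that carry body tissue transcripts, the SD was 0.20 to 0.44, again with 11 to 336 genes apart. The next closest pair was air at 30 and 90 min, with 11 genes. Pairs of an unexposed and an exposed array had 29 to 223 genes apart. Pairs among exposed arrays compare different times, and their spread includes any change with time, so they are not replicates like A and B.

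Whether the baseline differs from heads of handled flies was tested with limma over 8184 genes and unnamed probe sets, in a model of 3 groups over all 16 arrays. In this model the air arrays count as replicates of each other, and so do the ethanol arrays, although each has a different recovery time. The spread behind each p-value, SE and SD given below thus includes any change with time and any body tissue transcripts. Against air, 6 (0.0733%) passed at an adjusted p below 0.05, 4 (0.0489%) higher and 2 (0.0244%) lower in unexposed heads. Against ethanol, 63 (0.77%) passed, 24 (0.293%) higher and 39 (0.477%) lower. With every array rescaled to the same distribution the ethanol comparison gave 46, of which 25 were higher and 21 lower. Both comparisons use the same 2 unexposed arrays, so the 6 that passed in both are not independent. The counts rest on both: without A 3 passed against air and 3 against ethanol, and without B 3 and 2. Without the 4 arrays that carry body tissue transcripts 2 and 17 passed. Whether A and B were hybridized along with the exposed arrays is not given in the sources used here, and handling and any such batch cannot be told apart.

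The 4 named genes that passed against both groups were taken because they passed, after their values were seen. brat, a translational repressor that restrains growth, was at 4.93 in A and 4.53 in B, and at 2.81 to 3.23 in the 14 exposed arrays. Against air its difference was 1.75 ± 0.10 (SE) with an adjusted p of 9.9e-08, and it passed without A and without B as well. It reached the filter through A and B alone and so had to differ to be tested. With no filter its adjusted p was 6.0e-07. Its exposed values are near background, where differences on this scale are compressed.

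Amun was at 10.02 and 10.19, against 8.97 to 9.52 in the exposed arrays, a difference from air of 0.78 ± 0.12 (SE, adjusted p 0.021). AhcyL1, a relative of the enzyme that splits S-adenosylhomocysteine, was lower, at 4.94 and 4.72 against 5.64 to 6.997 (-1.58 ± 0.26, adjusted p 0.042). CG7300 was at 10.14 and 10.03 against 10.39 to 10.92 (-0.64 ± 0.11, adjusted p 0.048). No unexposed value of these 4 genes overlapped the exposed ones. Genes taken because they passed are likely to be separated in this way, and the share without overlap among everything tested was not counted. Without A or without B, Amun, AhcyL1 and CG7300 no longer passed against air, with an adjusted p of 0.16 to 0.69, and without the 4 arrays that carry body tissue transcripts 0.17 to 0.40. AhcyL1 and CG7300 also missed the threshold against air with no filter (adjusted p 0.073 and 0.054), with a filter at log2 6 (0.061 and 0.065) and after rescaling (0.078 and 0.13).

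**Figure D5:**
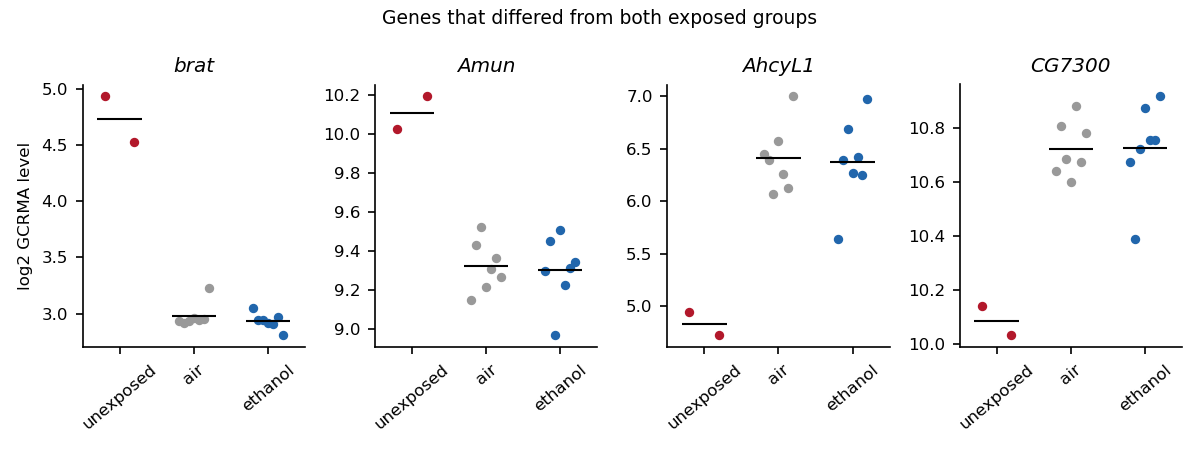
Log2 GCRMA level (vertical axes, each with its own scale) of 4 genes in the 2 unexposed, 7 air and 7 ethanol arrays, points by array and a bar for the group mean. Unexposed values lie above all exposed ones for brat and Amun and below them for AhcyL1 and CG7300. The 4 genes were chosen because they passed against both groups.

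None of the 200 highest genes passed in either comparison by limma. At an unadjusted p below 0.05 there were 2 against air and 10 against ethanol, and limma with trended and robust variances also called none. The smallest p against both groups belonged to nrv3, 13.50 and 13.52 in unexposed heads against a mean of 13.17 ± 0.10 (SD, n = 7) in air, with an adjusted p of 0.23 by limma, and 13.19 ± 0.10 (SD, n = 7) in ethanol, adjusted p 0.12. Cyp313a1 (14.06 and 14.04 against 13.82 ± 0.05 (SD, n = 7) in air, limma adjusted p 0.58) and Obp57c (13.43 and 13.36 against 13.12 ± 0.11 (SD, n = 7) in ethanol, limma adjusted p 0.14) followed. The median size of the difference over the highest 200 was 0.05 in either comparison, against 0.09 and 0.11 over everything tested.

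By list, no tissue list had a member that passed against air. Against ethanol, 10 of the 15 antennal genes that passed the filter were higher in unexposed heads, with a median difference of 1.76 over those 15 beside -0.04 over everything tested. The other 11 measured antennal genes lay too low to be tested, and a difference at the antenna after ethanol was among the results known beforehand. Among the 15, Orco was at 2.77 to 3.85 in ethanol and so reached the filter through unexposed and air arrays alone. Such a filter can raise the median over the 15. The 10 stand beside the 0.293% of everything tested that was higher. For Os-C the unexposed 10.43 and 10.51 lay above the ethanol range of 7.46 to 8.83 (2.20 ± 0.37 (SE), limma adjusted p 0.014), and it missed the threshold without A (0.14) and without B (0.29). For Obp83b the unexposed 11.43 and 11.49 lay above 8.67 to 10.23 (1.88 ± 0.37 (SE), limma adjusted p 0.025). It missed the threshold with no filter (0.074), without the 4 arrays that carry body tissue transcripts (0.055), without A (0.22) and without B (0.41).

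Of the 19 activity and stress genes, 4 were lower in unexposed heads than after ethanol, beside the 0.477% of everything tested that was lower. This list, too, was chosen with earlier results of these data known, so the 4 are not read as an excess. Arc1 was at 12.53 and 12.45 against 12.77 to 13.05 in ethanol (-0.44 ± 0.09 (SE), limma adjusted p 0.034), but with the mean of its probe sets the difference was -0.15 with an adjusted p of 0.95. Its adjusted p was 0.11 without the 4 arrays with body tissue transcripts, 0.20 without A and 0.57 without B. Hsp27 (-1.18 ± 0.26 (SE), limma adjusted p 0.048) missed the threshold with no filter (0.13), after rescaling (0.076), without the 4 arrays (0.17), without A (0.23) and without B (0.70).

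The neuronal gene Appl was higher in unexposed heads than after ethanol (12.26 and 12.003 against 11.32 to 11.74, limma adjusted p 0.039), and missed the threshold with no filter (0.073), without the 4 arrays (0.090), without A (0.36) and without B (0.27). The eye pigment transporter gene st was higher as well (7.34 and 7.28 against 6.39 to 6.88, a difference of 0.56, limma adjusted p 0.041), and missed it with no filter (0.074), without the 4 arrays (0.15), without A (0.28) and without B (0.43). No photoreceptor, neuropeptide, glial, fat body or muscle gene of the lists passed in either comparison.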

How the data were processed

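Head RNA was extracted with Trizol and labelled with biotin, per the labels. The deposited log2 values are the authors' own GCRMA output, as the submitters' processing notes name that tool without a version. The method compresses values near background. Of 18952 probe sets, 183 controls were left out. Of the 18769 used, 13647 have 1 gene symbol, matched by Entrez ID to the RefSeq table, 402 several and 4720 none. A gene took its probe set of highest mean over 16 arrays. The number of arrays, 2 unexposed, limits the precision. The members and gene lists were chosen with earlier results of these data known.

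Contrasts used limma 3.58.1 in R 4.3.3 with 3 groups, over genes at log2 4 or above in at least 2 arrays, with Benjamini-Hochberg adjustment. Tested on simulated data with 8184 genes, limma recovered 88% of 200 changes of 2-fold for unexposed against air, with 0 of the wrong sign. It also made 8 false calls, 4.35% of its calls. The share of such changes recovered on the deposited arrays was not tested. Alternatives were other filters, quantile scaling, the mean of probe sets, trended and robust variances and fewer arrays. Levels used Python 3.11.15, numpy 2.4.6 and pandas 2.3.3. Named genes were drawn from the 40 highest, up to 8 highest and 5 lowest of each list, the 10 largest differences between A and B on each side and the 5 smallest p-values among the 200 highest genes. Not all of these are named, and any others are marked where they appear.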

Additional observations from a re-analysis of the deposited data

Results flagged for a closer look

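In 32 sets of 7 exposed arrays that were checked for a stray array, 6 had an array far from the other 6, and chance alone gives about 1 in 20. In ethanol at 120 min the mean of the male reproductive tract list was 4.13, against 2.38 to 2.45 in the other 6 ethanol arrays, and the mean of the gut list was 3.81, against 2.25 to 2.29. In air at 180 min the mean of the lens and pigment cell list was 8.93, against 8.64 to 8.74, that of the neuropeptide list 8.74, against 8.47 to 8.57, and that of the epidermis and cuticle list 5.47, against 5.33 to 5.39. In air at 210 min brat was at 3.23, against 2.91 to 2.96 in the other air arrays.

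Of the 100 highest probe sets in the unexposed heads, 41 have no single gene symbol and stand outside the gene ranking, although their signal is among the highest.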

How the results depend on the processing

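The numbers of genes at log2 4 or above and at 10 or above, the number shared by the highest 100 of A and B, and the SD of A minus B kept within their limits under every alternative run. Genes apart by 1 log2 unit between A and B fell from 4 to 2 after quantile scaling and to 2 with a filter at log2 6. The median percentile of a list moved with the mean of a gene's probe sets to 90.9 for photoreceptors, 73.9 for lens and pigment cells, 50.3 for the antenna, 70.99 for neurons, 80.6 for neuropeptides, 91.5 for glia, 84.5 for the fat body, 97.6 for muscle, 41.9 for the epidermis and 12.5 for the gut. Without A or without B it lay at 53.5 to 54.3 for the antenna, 78.9 to 79.0 for neurons and 90.1 to 90.7 for glia.

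The count against air was 10 with no filter, 1 with a filter at log2 6, 3 without A and 3 without B, and 2 without the 4 arrays with body tissue transcripts. Against ethanol it was 3 without A, 2 without B and 17 without those 4 arrays, and 46 to 69 under the other alternatives. Without A or B a group holds 1 array, assumed to vary like the others. Of the 36 single-gene contrast results, 24 lost the threshold without A and 24 without B, 15 without those 4 arrays, 10 with no filter, 4 with quantile scaling, 2 with a filter at log2 6 and 1 with the mean of probe sets, and none changed direction. With a filter at log2 6 brat was not tested. The 36 include the 5 smallest p-values among the 200 highest genes in each comparison. None of those had passed, so they had no threshold to lose. The cause was not tested. No paired analysis was possible because A and B share no replicate number with the air or ethanol arrays. The numbers that air and ethanol share belong to a comparison not made here.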
